A study of Oryza sativa Indica Group with 8 samples.

Results

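The genes that make sucrose in the rice leaf and the genes that carry it across membranes were compared between GL and OE5. The set held 10 MSU loci chosen by name, 5 sucrose phosphate synthases (SPS1, SPS2, SPS6, SPS8 and SPS11) and 5 sucrose transporters (SUT1 to SUT5), out of 35961 loci with deposited values. Of the 10, 9 were listed, 8 passed the filter on low expression, and none of these 8 passed the test for a difference between the genotypes. GL is the indica variety Guangluai 4, which the study describes as carrying a natural allele of OsPRR37 without function. OE5 is a single transgenic line that overexpresses OsPRR37, a negative component of the rice clock, with Guangluai 4 as the recipient parent. RNA-seq was made from 2 libraries of each genotype, called here GL-1, GL-2, OE5-1 and OE5-2. All came from top expanded leaves taken in the morning from plants aged 15 days, which had grown at 28°C under a daily light phase of 14 h and a dark phase of 10 h. The study's methods call the 2 libraries biological replicates, and the promoter of the transgene is not given in the sources used here. With 1 overexpression line, an effect of OsPRR37 and any other difference carried by that line cannot be told apart, and the level of OsPRR37 itself was not analysed here.

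Sucrose phosphate synthase joins UDP-glucose and fructose phosphate in the cytosol, and a phosphatase then releases sucrose. The synthase is a control point for how much fixed carbon leaves the chloroplast as sucrose rather than staying as starch. Sucrose transporters of the SUT family are proton symporters. They load sucrose into the phloem, retrieve it along the transport path or release it from the vacuole. The study asked what part DNA methylation has in the response of clock output genes to excess OsPRR37, and the RNA-seq compared here gave the expression side of that question. The MSU loci were SPS1 (LOC_Os01g69030), SPS2 (LOC_Os02g09170), SPS6 (LOC_Os06g43630), SPS8 (LOC_Os08g20660) and SPS11 (LOC_Os11g12810). For the transporters they were SUT1 (LOC_Os03g07480), SUT2 (LOC_Os12g44380), SUT3 (LOC_Os10g26470), SUT4 (LOC_Os02g58080) and SUT5 (LOC_Os02g36700).

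The counts on genes ranged from 43423801 to 48284992 per library. The listed members together had 36120 to 45216 counts per library, a share of 0.0809% to 0.0989%. GL-2 differed in make-up from the others. Its most abundant locus took 4.50% of all counts, against 2.48% to 2.78% in the other libraries, and its 20 highest loci took 26.4%, against 19.7% to 21.2%. The leaf label was checked with 6 loci of photosynthesis proteins, all listed, whose summed TPM (a level scaled to gene length and to the library total) was 116846 to 127946 in GL and 114499 to 128971 in OE5. Of 5 root loci, 3 were listed, and their summed TPM was 11.5 to 12.1 in GL and 7.10 to 8.63 in OE5. Only 1 of them exceeded 1 TPM in any library (at most 12.0 TPM). This locus was also the only root locus tested, and it was called different between the genotypes. The part of this difference in the results was not tested. Since bulk leaves were measured, fewer cells of a type, such as the phloem companion cells in which SUT1 acts, and less RNA per cell cannot be told apart.

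SPS1 was the most abundant of the 9 listed members, and SUT2 was the most abundant transporter. SPS1, described in rice as the main synthase of source leaves, had levels of 157 and 215 TPM in the GL libraries and 180 and 146 TPM in the OE5 libraries. Its mean level lay at the 96.9th percentile of the 19280 genes that passed the filter. The highest and the lowest library of SPS1 thus belonged to different genotypes, but the GL and OE5 values overlapped, because GL-1 lay below OE5-1. SPS11, which also contributes to synthase activity in rice leaves, followed at 45.4 and 57.7 TPM in GL and 53.2 and 49.4 TPM in OE5. Both OE5 libraries of SPS11 lay between the GL libraries. SPS6 had 24.3 and 28.4 TPM in GL and 27.9 and 26.0 TPM in OE5, again with both OE5 libraries between the GL libraries.

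The remaining synthases were lower. SPS8 had 16.0 and 17.6 TPM in GL and 18.9 and 18.4 TPM in OE5, so its groups did not overlap on the TPM scale and both OE5 libraries were higher. SPS2 had 13.2 and 14.6 TPM in GL and 16.6 and 14.2 TPM in OE5, with OE5-2 between the GL libraries. SPS8 was the only one of the 8 members whose TPM values did not overlap between the genotypes. Of all 19280 genes, 53.7% did not overlap on this scale, 45.0% with OE5 higher, so this separation was common. When the counts were scaled by TMM, a normalization that assumes most genes unchanged, the SPS8 values of the genotypes overlapped.

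Among the transporters, SUT2, which sits in the vacuolar membrane and releases stored sucrose to the cytosol, had 60.6 and 64.7 TPM in GL and 65.7 and 62.2 TPM in OE5. Its 4 libraries lay close together. SUT1, the plasma membrane symporter of the phloem that also serves grain filling, had 24.2 and 20.3 TPM in GL and 22.8 and 18.0 TPM in OE5. The OE5 libraries of SUT1 interleaved with those of GL on this scale. SUT4, a further sucrose symporter, had 9.28 and 9.10 TPM in GL and 10.8 and 9.15 TPM in OE5, and its groups overlapped because OE5-2 lay between the GL libraries.

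SUT5 was at the edge of detection. It had 2 counts in GL-1, 2 in GL-2 and 0 in both OE5 libraries. A count of 0 allows up to 3 counts, which for SUT5 is 0.0463 TPM in OE5-1 and 0.0454 TPM in OE5-2. Both genotypes were at or under this floor, which covers counting error only, so no fold change is given and a difference was not detectable at this depth. Without the filter on low values SUT5 entered the edgeR fit and was not called (adjusted p = 0.682). SUT3 was not among the listed loci and was not analysed here.

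**Figure D1:**
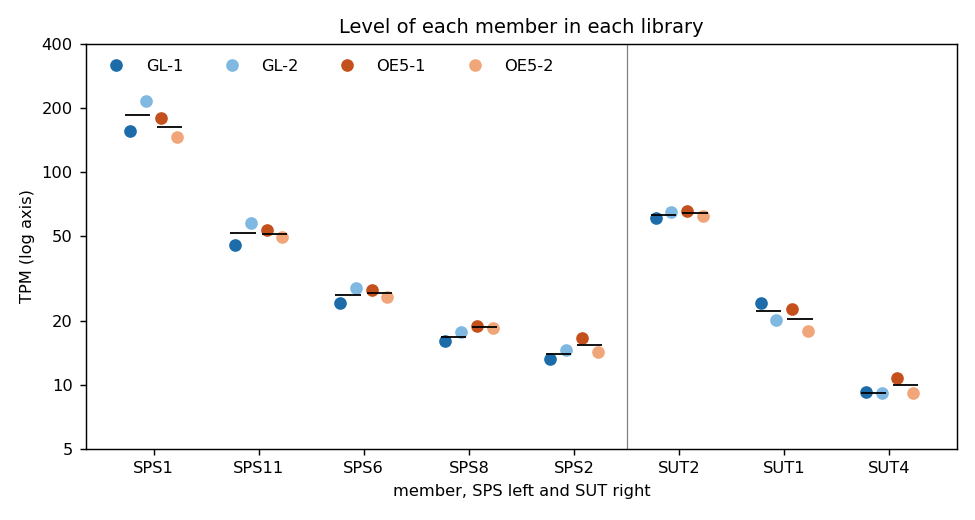
Level of 8 members in each library. The vertical axis gives TPM on a log scale, each point is 1 library coloured by library, and the short lines are the mean of each genotype. SPS1 lies highest, from 146 to 215 TPM, and SUT4 lowest, from 9.10 to 10.8 TPM, and SUT5 (at most 2 counts) is not drawn.

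By mean TPM over the libraries, the order was SPS1, SUT2, SPS11, SPS6, SUT1, SPS8, SPS2, SUT4 and SUT5. The libraries of neighbours in this order did not overlap in either genotype, except for SUT1 and SPS8. These were separate in GL, but overlapped in OE5, and SPS8 was above SUT1 in OE5-2. SUT2 exceeded SPS11 by 1.12-fold to 1.33-fold in the 4 libraries, and SPS6 exceeded SUT1 by only 1.01-fold in GL-1. The ranking depends on the division by length. The length implied by the counts and TPM of SPS8 was 2.23 times that of SPS1, and its 3341 counts in GL-1 exceeded the 3271 counts of SPS6 although its TPM was lower.

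The make-up of the families was then compared. SPS1 supplied 61.3% and 64.6% of the summed TPM of the synthases in GL and 60.6% and 57.4% in OE5. For GL the mean was 62.9% ± 2.31 (SD, n = 2), and for OE5 it was 59.0% ± 2.28 (SD, n = 2). Both OE5 libraries were below both GL libraries, and the two-sided exact permutation test returned p = 0.333, below which a design of 2 against 2 cannot go. The shares of SPS2, SPS8 and SPS11 were higher in both OE5 libraries than in both GL libraries, and the share of SPS6 overlapped. SPS11 made up 17.8% and 17.3% in GL and 18.0% and 19.5% in OE5. These shares sum to a whole, so they are not separate results. The nearest libraries of the genotypes were close, with an SPS1 level of 3.45 times that of SPS11 in GL-1 and 3.37 times in OE5-1. GL-2 and OE5-2 lay further out, at 3.74 and 2.95 times.

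SUT2 supplied 64.4% and 68.8% of the summed transporter TPM in GL and 66.2% and 69.6% in OE5, so the groups overlapped. SUT1 supplied 25.7% and 21.5% in GL and 23.0% and 20.1% in OE5, which overlapped as well. The share of SUT4 was 9.86% and 9.67% in GL and 10.9% and 10.2% in OE5. SUT4 was the only transporter with a higher share in both OE5 libraries, again at the smallest exact p of 0.333.

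**Figure D2:**
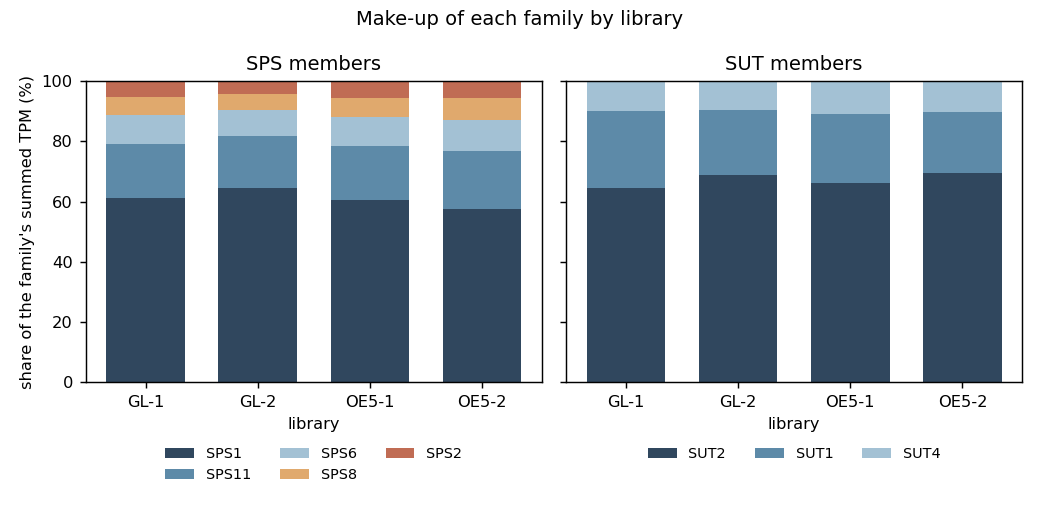
Share of each member in the summed TPM of its family, in percent, with a stacked bar for each library. SPS1 fills 57.4% to 64.6% of the synthase bars and SUT2 fills 64.4% to 69.6% of the transporter bars in the 4 libraries, and SUT5 (at most 0.0350%) is too small to be drawn.

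The GL libraries had a summed synthase level of 295 ± 55.2 TPM (SD, n = 2), and the OE5 libraries one of 275 ± 30.1 TPM (SD, n = 2). The difference was smaller than the pooled SD of 44.5 TPM, and GL-1 and GL-2 (256 and 334 TPM) lay further apart than the genotype means. The exact permutation test gave p = 0.667. After TMM scaling the gap was wider, with 312 ± 75.6 TPM (SD, n = 2) in the GL libraries against 262 ± 32.1 TPM (SD, n = 2) in those of OE5, but the values still overlapped and the exact permutation p was again 0.667. The summed transporter level of GL was 94.1 ± 0.0121 TPM (SD, n = 2) and that of OE5 was 94.3 ± 6.99 TPM (SD, n = 2), with an exact permutation p of 1. After TMM scaling these levels were 99.1 ± 5.60 TPM (SD, n = 2) in GL and 89.7 ± 7.83 TPM (SD, n = 2) in OE5. The values overlapped (exact permutation p = 0.667). The ratio of transporter to synthase TPM averaged 0.325 ± 0.0609 (SD, n = 2) over the GL libraries and 0.344 ± 0.0122 (SD, n = 2) over those of OE5, and the exact permutation p was 1. In all, 27 sums, shares and ratios were compared in this way, and after Benjamini-Hochberg adjustment the lowest p was 0.818. Since the exact permutation p cannot go below 0.333 here, no adjusted p could have been small, and no conclusion is drawn from it.

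Single genes were tested across all 19280 genes with the quasi-likelihood F test of edgeR after TMM scaling. A gene was called when its fold change exceeded 1.5 and its adjusted p was below 0.05. Of the 8 members, 0 were called. Of all tested genes, 3.39% were called (653 genes), 2.11% higher and 1.28% lower in OE5. With the replicate number as a block, 0 members and 3.67% of all genes were called. DESeq2 called 0 members and 4.00% of all genes. An unadjusted p under 0.05 was reached in edgeR by 0 of the 8 members, beside 15.2% of all genes. In DESeq2 it was reached by SPS1 alone, and the share of all genes was not taken there. The adjusted p-values of the members ran from 0.387 to 0.979 by edgeR.

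All 8 fitted changes were below 0, with a median log2 fold change of -0.13 over the members and -0.01 over all tested genes. This common sign depended on the scaling and on single libraries. On the log2(TPM + 1) scale, with limma and without TMM, the median over all genes was 0.14 and that over the members 0.03, and only SPS1 and SUT1 were below 0. Relative to the median of all genes on that scale, 7 of the 8 members were lower, SPS8 being the exception. Without GL-2, the median was 0.01 for the members and 0.01 for all genes, and 4 members lay on each side of the latter. Without OE5-2, 5 members lay below the median of all genes and 3 above it. All 8 lay below it without GL-1 and without OE5-1.

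SPS1 had the lowest fitted change. Its normalized counts were 15920 and 23118 for GL-1 and GL-2, and 16850 and 13516 for OE5-1 and OE5-2. GL-2 stood above the other libraries, and GL-1 lay between the OE5 libraries. The log2 fold change was -0.36 with a standard error of 0.19, and edgeR's adjusted p was 0.45. The 95% interval ran from 0.571-fold to 1.06-fold, so the interval held reductions past the 1.5-fold limit. Without GL-1, the log2 fold change was -0.60 and SPS1 was called. That fit has a lone GL library, which is assumed to vary like the OE5 libraries. It also called more of all tested genes than the fit of all libraries. Without GL-2 the log2 fold change of SPS1 was -0.06, so the size of the change rested on which GL library was used.

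The GL libraries differed more in SPS1 than in most genes. The log2 ratio of GL-2 over GL-1 was 0.54 in normalized counts, at the 87.2nd percentile of absolute ratios over all tested genes. SPS11 had a ratio of 0.42 (80.4th percentile), and SPS6, SPS2 and SPS8 had 0.30, 0.22 and 0.22. All 5 synthases and SUT2 and SUT4 were higher in GL-2, while SUT1 was lower, with a log2 ratio of -0.18. Of all tested genes, 49.9% were higher in GL-2. In OE5, all 8 members were higher in OE5-1 than in OE5-2, as were 52.2% of all tested genes, with the widest ratio for SUT1 (-0.36 for OE5-2 over OE5-1) and the next for SPS1 (-0.32). For SPS2, SPS8 and SUT4, the ratio between replicates of at least 1 genotype was several times larger than the fitted genotype change. The higher share of the 20 most abundant loci in GL-2, given above, moved with the high synthase values, and its part in them was not tested.

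SUT1 had the smallest p of the members. Its normalized counts were 2739 and 2422 in GL and 2382 and 1860 in OE5. Both OE5 libraries lay below both GL libraries on this scale, by a narrow margin between GL-2 and OE5-1. Among all tested genes, 44.6% did not overlap on this scale, 22.2% with OE5 higher and 22.5% with OE5 lower. The fitted log2 fold change was -0.28, with a standard error of 0.14, an adjusted p of 0.387 from edgeR and a 95% interval from 0.662-fold to 1.02-fold. It ranged from -0.47 without OE5-1 to -0.12 without OE5-2. SUT1 was not called under any alternative.

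The other 6 members had intervals within the 1.5-fold limit in both directions. The fitted value of SPS11 was -0.17 on the log2 scale (standard error 0.15), with a 95% interval of 0.703-fold to 1.12-fold. SPS6 and SUT2 had log2 fold changes of -0.14 and -0.13. Their intervals ran from 0.744-fold to 1.11-fold and from 0.762-fold to 1.09-fold. SUT4, SPS2 and SPS8 lay nearest to 0, with log2 fold changes of -0.04, -0.02 and -0.01. For SPS8, the interval ran from 0.825-fold to 1.19-fold. These intervals rest on 2 libraries per genotype and on the spread shared across genes. The biological coefficient of variation of the members was 10.7% to 15.8%, highest for SPS1, with a median of 11.6% beside 13.5% for all tested genes.

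**Figure D3:**
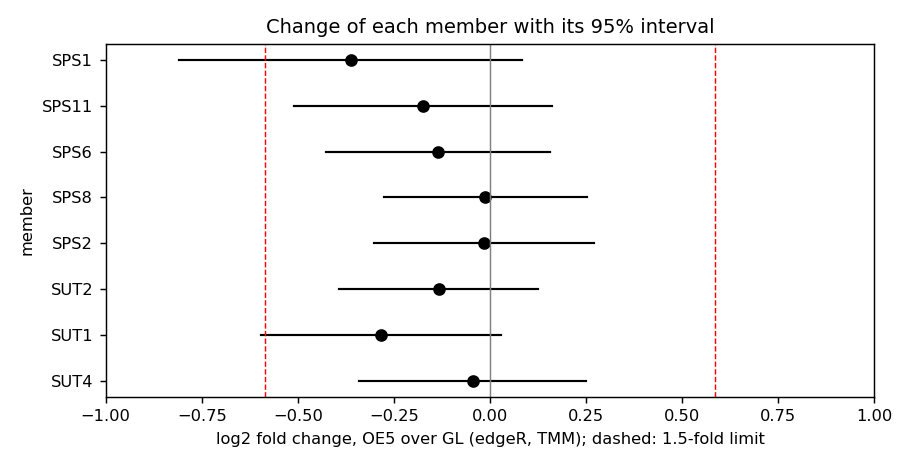
Change of the 8 tested members between the genotypes. The horizontal axis gives the log2 fold change of OE5 over GL from edgeR, each point is a member, the bars are 95% intervals and the dashed lines mark the 1.5-fold limit. All bars cross 0, and those of SPS1 and SUT1 also cross the limit toward lower values in OE5.

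**Figure D4:**
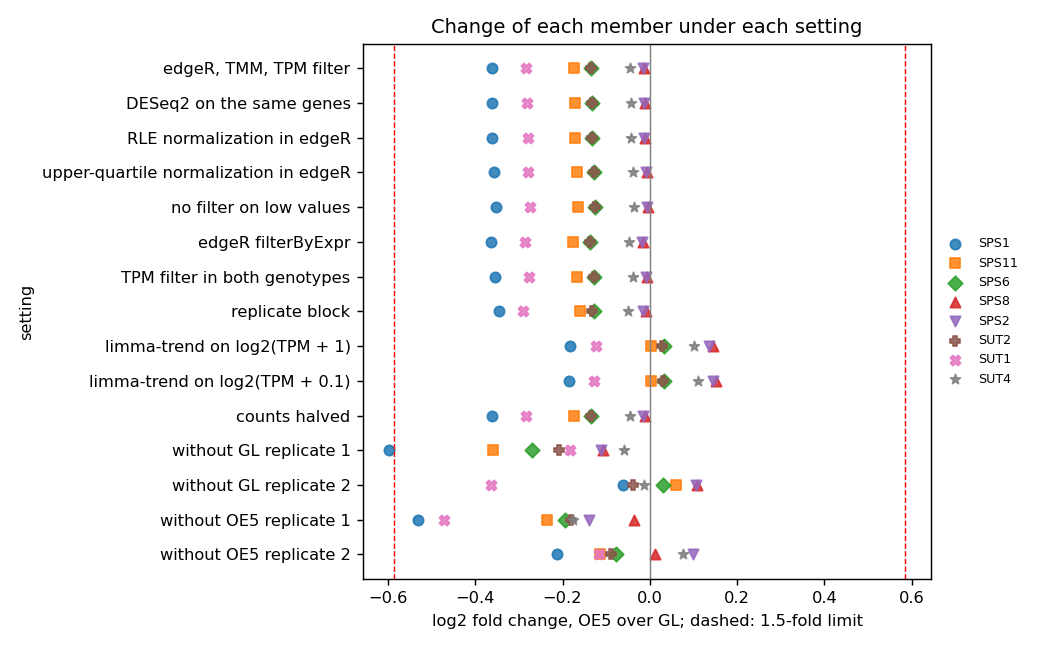
Change of the 8 tested members under each setting of the analysis. The horizontal axis gives the log2 fold change of OE5 over GL, each row is a setting and each symbol a member. The values lie between -0.60 and 0.15, and SPS1 passes the 1.5-fold limit once, without GL replicate 1.

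The loci next to these families in sucrose metabolism were taken from lists based on common rice nomenclature. The files do not pair these loci with names, so single loci are given by identifier. Beside the counts below, 3.39% of all tested genes were called, and their median log2 fold change was -0.01 over all tested genes. Of 7 loci for synthesis partners (sucrose phosphatases, UDP-glucose pyrophosphorylases, cytosolic fructose bisphosphatase and the triose phosphate translocator), all 7 were tested, 1 was called higher in OE5 and 0 lower, and the median log2 fold change was 0.16. The called locus was LOC_Os01g27880, entered in the list as a phosphatase, which acts on the product of the synthases. Its level was 47.8 and 49.4 TPM in GL and 99.4 and 81.2 TPM in OE5. Both OE5 libraries were above both GL libraries. In edgeR the log2 fold change was 0.73 with a standard error of 0.13 (adjusted p = 0.0169). The call was lost without either OE5 library, with log2 fold changes of 0.57 without OE5-1 and 0.88 without OE5-2. Fewer of all tested genes were called in these fits, which leave 1 OE5 library.

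Of 21 SWEET loci, whose proteins let sugars pass down their gradient and in part export sucrose to the apoplast before SUT proteins take it up, 13 were tested. None was called higher and 1 lower, with a median log2 fold change of 0.00 and a range from -0.86 to 1.19. An unadjusted p under 0.05 in edgeR was reached by 5 of the 13, beside 15.2% of all tested genes. A further locus had an edgeR adjusted p of 0.0414, but its log2 fold change of -0.52 was under the 1.5-fold limit. The called locus, LOC_Os05g12320, had 17.9 and 19.8 TPM in GL and 11.6 and 11.6 TPM in OE5. Its groups did not overlap, and the log2 fold change in edgeR was -0.86 with a standard error of 0.14 (adjusted p = 0.011). This call too was lost without either OE5 library, where fewer of all tested genes were called. The log2 fold change stayed at -0.87 without OE5-1 and -0.85 without OE5-2.

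Invertases, which split sucrose, were represented by 18 loci, of which 12 were tested. None was called higher and 1 lower, LOC_Os02g01590, entered as a vacuolar invertase. It had 106 and 77.7 TPM in GL and 61.1 and 71.5 TPM in OE5, with GL-2 near OE5-2. In edgeR its log2 fold change was -0.63 with a standard error of 0.15 (adjusted p = 0.0499), and the adjusted p lay close to the threshold. With the replicate block the log2 fold change stayed at -0.62 and the call was lost (adjusted p = 0.0831). The call was also lost without OE5-1 (-0.52) and without OE5-2 (-0.74), where fewer of all tested genes were called. It was lost without GL-1 as well, where the log2 fold change of -0.42 was under the 1.5-fold limit. Of 2 tonoplast sugar transporter loci, both were tested and none was called. DESeq2 made the same number of calls as edgeR in each of these lists. Whether the change of a called locus differed from that of a synthase or transporter was not tested.

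**Figure D5:**
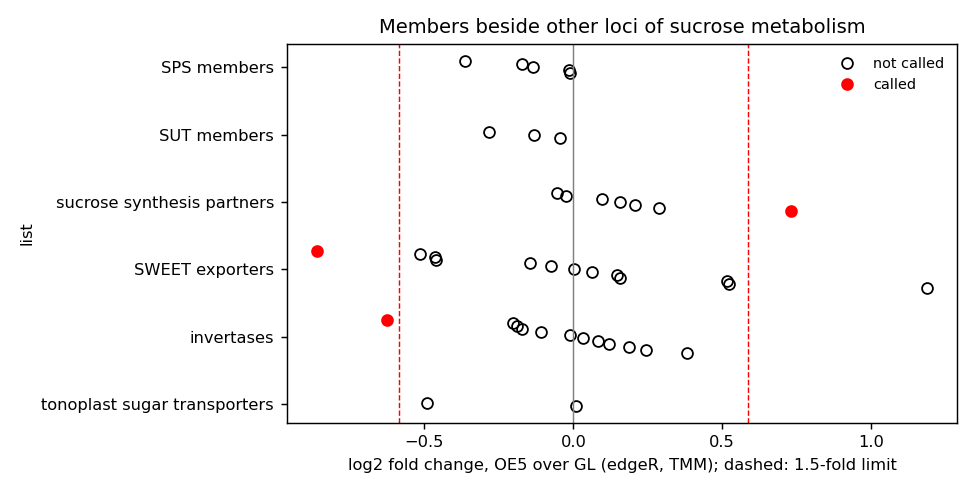
The 8 tested members beside the other listed loci of sucrose metabolism. The horizontal axis gives the log2 fold change of OE5 over GL from edgeR, each point is a locus, red points were called and the dashed lines mark the 1.5-fold limit. The members lie between -0.36 and -0.01, and the 3 called loci lie at 0.73, -0.86 and -0.63.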

How the data were processed

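The 2 leaf RNA-seq libraries of each genotype were used, and the 4 bisulfite libraries were not analysed here. The authors trimmed the reads with fastp (0.20.1 in the submitters' processing notes), aligned them with Hisat2 (2.1.0) against the MSU v7.0 assembly of Nipponbare and counted them with TPMCalculator. The deposited counts are raw reads per locus. The authors also deposited TPM, in which length and library total are divided out. How strand, multi-mapped reads and overlapping genes were handled is not given in the sources used here, so reads shared between related loci may be split.

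The count test used edgeR 4.0.16 under R 4.3.3 (robust quasi-likelihood fit after TMM, prior count 2), with Benjamini-Hochberg adjustment over all genes kept. Genes were kept where TPM summed over the replicates reached 2 in GL or OE5. Standard errors were taken as the size of the log2 fold change divided by √F, and the 95% interval used the test's degrees of freedom. Normalized counts are counts over the relative effective library size (TMM factors 0.914 to 1.06). Sums and shares were compared with an exact permutation test in Python 3.11.15. DESeq2 1.42.0, limma 3.58.1 and other normalizations, filters, a replicate block, halved counts and each library left out were alternatives. The tests were run on simulated data beforehand. P-values of the count tests set a difference against the spread between these libraries, moderated by the spread shared across genes. Those of the exact permutation test rest only on how the library values divide between the genotypes.

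The members, the lists and the other loci named (those past the call threshold) were chosen with earlier results of these data known. Names of members came with the selection, and the RefSeq table used here pairs no MSU locus with a symbol. No sequences were used.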

Additional observations from a re-analysis of the deposited data

How the results depend on the processing

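None of the 8 members was called under any of the 14 alternatives, except SPS1 without GL replicate 1. In that fit, more of all tested genes were also called than with all libraries. Of 112 member values, 92 kept their sign without a change of call, and 19 in 4 of the settings reversed. With limma-trend on log2(TPM + 1), the log2 fold changes were 0.14 for SPS2, 0.032 for SPS6, 0.14 for SPS8, 0.0019 for SPS11, 0.029 for SUT2 and 0.10 for SUT4. With a pseudocount of 0.1 they were 0.14, 0.033, 0.15, 0.0021, 0.029 and 0.11. These fits had no TMM, and the median of all genes moved from -0.01 to 0.14 and 0.16. Leaving out each library in turn, the values ranged from -0.60 to -0.06 for SPS1, -0.14 to 0.10 for SPS2, -0.27 to 0.031 for SPS6, -0.11 to 0.11 for SPS8, -0.36 to 0.059 for SPS11, -0.47 to -0.12 for SUT1, -0.21 to -0.04 for SUT2 and -0.18 to 0.076 for SUT4. With 1 library left in a genotype, that library is assumed to vary like those of the other.

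The log2 ratio of OE5 over GL means was -0.10 for the summed synthase TPM, 0.00258 for the transporters and 0.08 for their ratio. With TMM-scaled TPM it became -0.25 for the synthases and -0.14 for the transporters, and stayed at 0.08 for their ratio. With each library left out it ranged from -0.28 to 0.10, from -0.075 to 0.076 and from -0.10 to 0.29. The called invertase locus fell to 0 calls with the replicate block, both limma fits, a TPM filter applied in each genotype, filterByExpr and upper-quartile scaling. Its log2 fold change of -0.63 stayed between -0.63 and -0.62 in these fits, with adjusted p from 0.0517 to 0.0831, except in the limma fits, where it was -0.45 and -0.46 (adjusted p = 0.228 and 0.232). The cause was not tested. The number of calls in the lists of other loci also depended on single libraries. Without GL-1 it rose for the synthesis partners, SWEET loci and tonoplast transporters and fell for the invertases. Without OE5-1 or OE5-2 it fell for the partners, SWEET loci and invertases and stayed the same for the tonoplast transporters. Without GL-2 it changed in none of these lists. Calls over all tested genes changed too, with more without either GL library and fewer without either OE5 library.

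With the replicate block, 708 genes were called in all, of which 608 were among the 653, and 0 members. Across genes, the deviations of libraries with the same number correlated at 0.121 (Pearson) and -0.123 (Spearman), so the numbers do not show a pairing. Under the block, the invertase locus was not called and no other call in the lists changed. The number of libraries, 2 per genotype, limits the precision of all these values.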
